A study of Mus musculus with 6 samples.

Results

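The fatty acid elongases and desaturases are the membrane enzymes of the endoplasmic reticulum that lengthen fatty acids and put double bonds into them. The genes described here are the elongases Elovl1, Elovl2, Elovl3, Elovl5 and Elovl7 and the desaturases Fads1, Fads2, Fads3, Fads6 and Scd2, which were chosen by gene symbol from the deposited count table. They are 10 of 54532 listed genes, each symbol matched a single row, and all 10 passed the filter on low counts. Elovl3 passed it through the control group only, and Elovl7 through the gSpns1-cKO group only. Messenger RNA from the liver was sequenced from 3 gSpns1-cKO mice and 3 control mice, with 1 library per mouse. According to the methods, gSpns1-cKO mice were Spns1 fl/fl mice that also carried Rosa26Cre-ERT2, a tamoxifen-dependent Cre recombinase that is expressed throughout the body. Injections of tamoxifen (50 mg/kg, at postnatal days 11, 13 and 15) removed exon 3 of Spns1, which encodes a lysosomal transporter of lysophospholipids. The methods describe the controls as floxed littermates, so that both groups would carry the floxed allele, whereas the sample labels name the groups WT and SPNS1 KO. The labels used here give neither the age at liver collection nor the sex, and the sources used here do not say whether the controls of the sequencing experiment received tamoxifen. Deletion was not limited to hepatocytes, and the comparison asks how the loss of Spns1 in the whole animal changed the transcripts of these enzymes in bulk liver.

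An elongase catalyses the first and rate-limiting step of a cycle that adds a pair of carbons to a fatty acyl-CoA. The 3-ketoacyl-CoA reductase Hsd17b12, a dehydratase of the Hacd family and the reductase Tecr complete the cycle. Elovl1, Elovl3 and Elovl7 act mainly on saturated and monounsaturated acids, and Elovl2 and Elovl5 act on polyunsaturated acids. Fads2 and Fads1 introduce double bonds near the carboxyl end of the essential fatty acids and so alternate with Elovl5 and Elovl2 on the route to arachidonic acid and docosahexaenoic acid. Fads3 is their close relative and acts on sphingoid bases, and Fads6 is a member of the family whose substrate is not well known. Scd2 is a stearoyl-CoA desaturase that makes monounsaturated acids and is the form typical of brain and of young liver, whereas Scd1 is the form of adult liver. Desaturases take their electrons from cytochrome b5, which for Fads1, Fads2 and Fads3 is fused to the enzyme itself.

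The coding sequences around the signature motifs of the families are shown side by side. The identities given with them bear on how well reads can tell the genes apart. The elongase windows below were taken from the GENCODE M21 transcripts of GRCm38 and are printed 5′ to 3′ on the coding strand, with the codons of the histidine box (His-X-X-His-His, in frame) in capitals.
Elovl1: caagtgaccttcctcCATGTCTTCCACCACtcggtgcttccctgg
Elovl7: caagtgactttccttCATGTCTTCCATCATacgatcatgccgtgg
Elovl3: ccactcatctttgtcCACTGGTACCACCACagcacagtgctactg
Elovl2: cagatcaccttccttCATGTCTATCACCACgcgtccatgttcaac
Elovl5: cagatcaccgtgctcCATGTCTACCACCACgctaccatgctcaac
These windows lie in coding exons at chr4:118431439-118431483 on the plus strand for Elovl1 (exon 6 of 8), chr13:108274316-108274360 plus for Elovl7 (exon 6 of 8), chr19:46134407-46134451 plus for Elovl3 (exon 4 of 4), chr13:41189986-41190030 minus for Elovl2 (exon 5 of 8) and chr9:77976835-77976879 plus for Elovl5 (exon 5 of 8). Elovl2 and Elovl5 were identical at 61.7% of aligned coding bases and Elovl1 and Elovl7 at 60.7%, whereas the other elongase pairs lay between 44.1% and 50.4%. The longest stretch shared without a mismatch was 23 bases between Elovl2 and Elovl5 and 16 bases between Elovl1 and Elovl7.

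For Fads1, Fads2 and Fads3 the windows hold the heme-binding motif of the fused cytochrome b5 domain, with the codons of His-Pro-Gly-Gly in capitals, from the same transcripts.
Fads1: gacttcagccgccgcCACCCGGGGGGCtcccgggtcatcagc
Fads2: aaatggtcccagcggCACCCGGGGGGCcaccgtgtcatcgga
Fads3: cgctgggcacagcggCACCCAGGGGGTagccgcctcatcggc
They lie in exon 1 of 12 of each gene, at chr19:10183199-10183240 plus for Fads1, chr19:10101247-10101288 minus for Fads2 and chr19:10041891-10041932 plus for Fads3. No such motif was found in the reading frames of Fads6 and Scd2. The coding sequences of Fads2 and Fads3 were identical at 68.7% of aligned bases, those of Fads1 and Fads2 at 66.0% and those of Fads1 and Fads3 at 61.1%. The 3 genes are neighbours on chromosome 19, where 4493 bases separate Fads3 from Fads2 and 81385 bases separate Fads2 from Fads1. Scd2 and Scd1 were identical at 89.6% of aligned coding bases and shared a run of 147 bases, so reads from this stretch cannot be assigned to either gene and the level of Scd2 is uncertain to that extent.

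The libraries held between 30350002 and 35295611 counts, and a floor of 3 counts corresponded to between 0.0763 and 0.119 CPM (the usual library-scaled counts, here after TMM scaling, which corrects for differences in RNA make-up). Without molecular identifiers in the reads, the intervals of counts given below describe counting error alone. Spns1 itself fell from 40.4 ± 8.98 CPM in control livers to 22.1 ± 7.40 CPM in gSpns1-cKO livers (SD, n = 3 each, log2 fold change -0.87, SE 0.25, edgeR adjusted p = 0.03). Its counts were 1008, 1562 and 875 in control and 642, 1175 and 698 in gSpns1-cKO livers, so the groups overlapped in counts, and counts per gene do not show whether exon 3 was lost. All 6 libraries had between 0 and 5 counts of Xist and between 1731 and 2568 of the Y-linked Ddx3y, so every library held Y-linked transcripts and next to no Xist. The TMM factors were 0.834 to 0.873 in control and 1.16 to 1.18 in gSpns1-cKO libraries, and without them the median log2 fold change of all tested genes moved from 0.01 to 0.46. Of 15449 genes tested, 41.8% passed an adjusted p of 0.05, 21.3% higher and 20.5% lower in gSpns1-cKO livers. Hepatocyte transcripts defined the tissue in every library, with 8 hepatocyte markers summing to between 99400 and 112000 CPM in control livers and between 59600 and 68400 CPM in gSpns1-cKO livers.

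Among the 10 genes, Elovl7 and Scd2 were higher in gSpns1-cKO livers, Elovl2, Elovl3 and Fads2 were lower, and Elovl1, Elovl5, Fads1, Fads3 and Fads6 did not pass the test. These 2 higher and 3 lower genes compare with 21.3% and 20.5% of all tested genes, so the number of calls was close to that of the liver transcriptome. The median log2 fold change was -0.27 for the 10 genes and 0.01 for all tested genes. For 7 of the 10 genes the libraries of the groups did not overlap in CPM, which was the case for 54.1% of all tested genes. What set the genes apart from each other was the size of the change, which ran from a log2 fold change of -7.29 for Elovl3 to 5.08 for Elovl7.

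**Figure D1:**
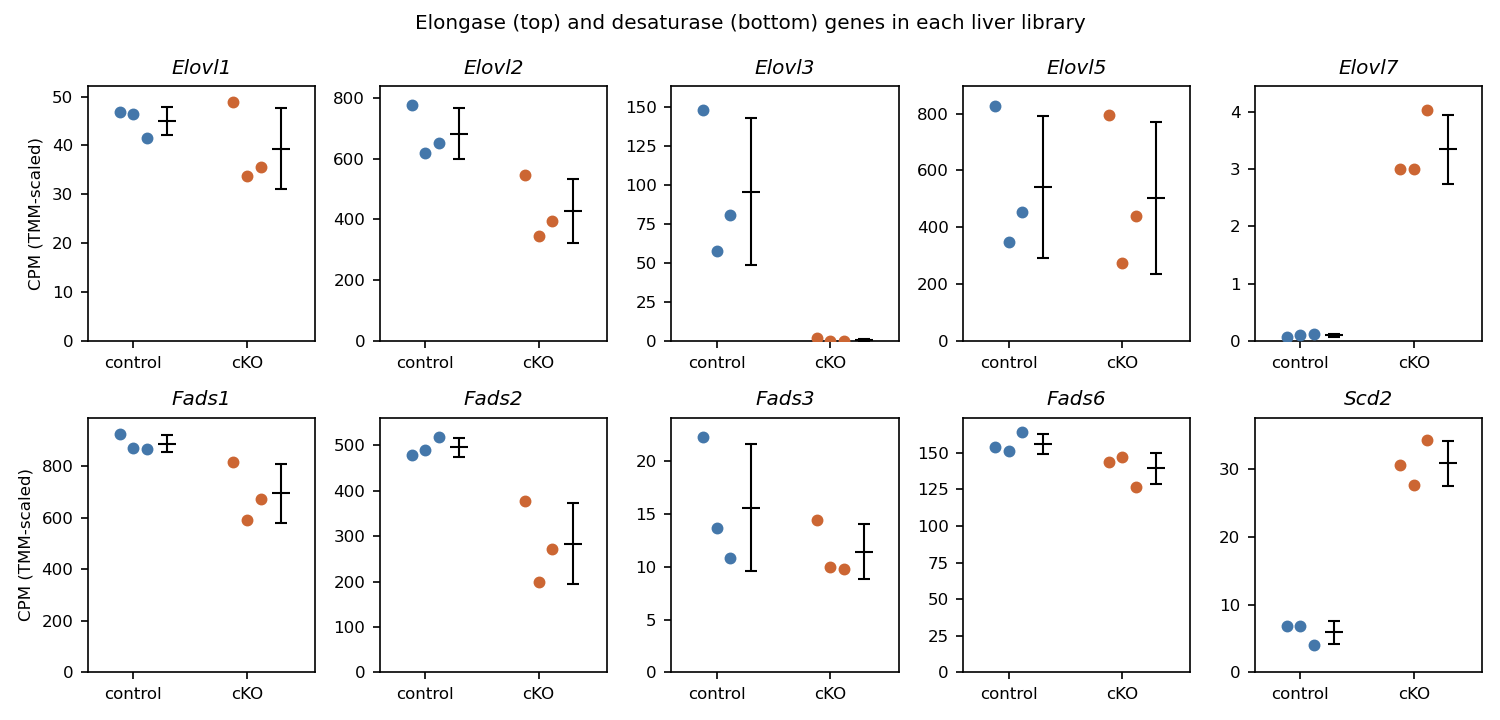
CPM on a linear axis from 0 for each elongase (top row) and desaturase (bottom row), with 1 point per liver library in the order of replicates 1, 2 and 3 and, beside the points, the mean and SD of the 3 libraries. Elovl3 was close to 0 in all gSpns1-cKO libraries, Elovl7 and Scd2 were higher in each gSpns1-cKO library than in any control library, and the 2 groups of Elovl5 covered the same range.

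Elovl3 elongates saturated and monounsaturated acids to very long chains, is known for brown fat, skin and liver, and in mouse liver is higher in males and follows the circadian clock. Its counts were 4150, 1777 and 2043 in control livers and 59, 5 and 4 in gSpns1-cKO livers. In CPM these were 148, 57.7 and 80.7 against 1.64, 0.13 and 0.102. Every control library was far above every gSpns1-cKO library, and the highest of the gSpns1-cKO libraries was replicate 1. The mean fell from 95.3 ± 46.7 to 0.624 ± 0.880 CPM (SD, n = 3 each), a 153-fold lower mean, and the log2 fold change was -7.29 with an SE of 1.07 (edgeR adjusted p = 0.00766). Without gSpns1-cKO replicate 1, which held 59 of the 68 counts of its group, the log2 fold change was -9.64, and leaving out each library in turn gave -9.64 to -6.77. Pooled over the libraries and scaled, the ratio of control to gSpns1-cKO counts was 158, with a 95% counting interval of 125 to 204. The gene lies at chr19:46131897-46135307 on the plus strand (ENSMUSG00000038754), and no other gene in the annotation overlaps it. Its promoter is not shown.

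Elovl7, an elongase of long-chain acyl-CoA that the liver normally makes little of, moved the other way. Control livers had 2, 3 and 3 counts and gSpns1-cKO livers had 108, 115 and 159 counts. Control livers were thus at or under the floor of 3 counts, and every gSpns1-cKO library was above it. The level rose from 0.0957 ± 0.0238 to 3.35 ± 0.603 CPM (SD, n = 3 each), and pooled over libraries the scaled ratio of counts was 35.4 with a 95% counting interval of 17.8 to 82.5. The fitted log2 fold change was 5.08 with an SE of 0.38 (edgeR adjusted p = 1.12e-05), and its size depends on how the fit treats counts this low. Even after the rise, Elovl7 was scarce per transcript length, at 0.834 ± 0.150 CPM per kb, against 14.4 ± 3.02 CPM per kb for Elovl1 in the same livers. The gene (ENSMUSG00000021696) spans chr13:108214404-108285683 on the plus strand. Elovl7 overlaps 2 processed pseudogenes on the other strand, Gm32376 and Gm30747, which had 0 counts in every library.

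Elovl2, which acts late in the synthesis of docosahexaenoic acid, was among the most abundant of the elongases and was lower in gSpns1-cKO livers. Its counts were 21853, 19083 and 16486 in control and 19614, 13183 and 15566 in gSpns1-cKO livers, and the CPM were 777, 620 and 651 against 545, 344 and 396. The raw counts overlapped, whereas the scaled values did not. The mean fell from 683 ± 83.3 to 428 ± 105 CPM (SD, n = 3 each, log2 fold change -0.67, SE 0.19, edgeR adjusted p = 0.0152). This call depended on the scaling, since with library size only the log2 fold change was -0.23 (edgeR adjusted p = 0.305), against 0.46 for the median gene on that scale. Without gSpns1-cKO replicate 3 the call was also lost, with a log2 fold change of -0.62 (edgeR adjusted p = 0.0636). Elovl2 (ENSMUSG00000021364) spans chr13:41182381-41220405 on the minus strand.

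Elovl5, the elongase next to Fads2 on the polyunsaturated route, varied more between mice than between groups. Its CPM were 825, 347 and 455 in control livers and 795, 274 and 440 in gSpns1-cKO livers, from counts of 10517 or more. Replicate 1 was the highest and replicate 2 the lowest in both groups. The means were 543 ± 251 and 503 ± 266 CPM (SD, n = 3 each), and the log2 fold change was -0.11 with a 95% interval of -1.10 to 0.88 (edgeR adjusted p = 0.881). With this spread, and with mice taken as unpaired, changes in either direction inside these bounds remain compatible with the data. Elovl5 (ENSMUSG00000032349) spans chr9:77917364-77984519 on the plus strand.

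Elovl1, which makes saturated and monounsaturated acyl chains for sphingolipids in most tissues, had 46.9, 46.5 and 41.6 CPM in control livers and 48.8, 33.7 and 35.5 CPM in gSpns1-cKO livers. The highest value of all was gSpns1-cKO replicate 1, so the groups overlapped. The log2 fold change was -0.19 with a 95% interval of -0.48 to 0.09 (edgeR adjusted p = 0.303). Without gSpns1-cKO replicate 1, Elovl1 passed the test at -0.38 (edgeR adjusted p = 0.0196). Scaled by library size only it was at 0.25, against 0.46 for the median gene. Elovl1 (ENSMUSG00000006390, chr4:118428093-118432953, plus strand) overlaps Cdc20 on the other strand, which had between 4 and 42 counts.

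Per deposited length, the order of these 5 elongases in control livers was Elovl2 with 172 ± 21 CPM per kb, Elovl5 with 154 ± 71.2, Elovl3 with 63.8 ± 31.3, Elovl1 with 16.5 ± 1.09 and Elovl7 at the floor (SD, n = 3). Elovl2 and Elovl5 were within their spread of each other. In gSpns1-cKO livers Elovl5 with 143 ± 75.5 and Elovl2 with 108 ± 26.4 CPM per kb were again within their spread, and among the 5 Elovl1 came next, since Elovl3 was at 0.418 ± 0.589 CPM per kb, which overlapped Elovl7. Outside the 5, Elovl6 had 33.0 ± 22.2 CPM per kb in control and 82.4 ± 47.2 in gSpns1-cKO livers.

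Fads2, the desaturase that starts the polyunsaturated route, was lower in gSpns1-cKO livers. Its CPM were 479, 489 and 518 in control and 377, 200 and 271 in gSpns1-cKO livers. The control libraries were close together, the gSpns1-cKO libraries were spread out, and all of the latter were below all of the former. The mean fell from 495 ± 19.9 to 283 ± 89.3 CPM (SD, n = 3 each, log2 fold change -0.81, SE 0.21, edgeR adjusted p = 0.0109). With library size only it was -0.37 (edgeR adjusted p = 0.144), against 0.46 for the median gene, so that this call too depended on the scaling. Fads2 (ENSMUSG00000024665) spans chr19:10064164-10101503 on the minus strand, and its levels per length rest on a deposited length of 1508 bases, which is short beside its longest annotated transcript of 3150 bases.

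Fads1, which acts after Fads2 and makes arachidonic acid, had 924, 870 and 867 CPM in control livers and 817, 591 and 674 CPM in gSpns1-cKO livers. Again the libraries of the groups did not overlap. The means were 887 ± 31.7 and 694 ± 114 CPM (SD, n = 3 each), and the log2 fold change of -0.35 (SE 0.16) did not pass the test (edgeR adjusted p = 0.0904). DESeq2 called it at -0.36 (adjusted p = 0.0402), and leaving out gSpns1-cKO replicate 1 gave -0.49 (edgeR adjusted p = 0.0177). With library size only it was at 0.09, against 0.46 for the median gene. Fads1 (ENSMUSG00000010663) spans chr19:10182888-10196870 on the plus strand.

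Fads3 was low in comparison with its neighbours, with 22.3, 13.7 and 10.8 CPM in control and 14.4, 10 and 9.79 CPM in gSpns1-cKO livers. The groups overlapped, and control replicate 1 stood highest. The log2 fold change was -0.45 with a 95% interval of -1 to 0.09 (edgeR adjusted p = 0.232). Fads3 (ENSMUSG00000024664) spans chr19:10041548-10059671 on the plus strand. Fads6 (ENSMUSG00000044788, chr11:115279622-115297663, minus strand) was the steadiest of the desaturases, with 154, 151 and 164 CPM against 144, 147 and 127 CPM. Its groups did not overlap, but the log2 fold change of -0.17 (95% interval -0.39 to 0.05) did not pass the test (edgeR adjusted p = 0.247). Scaled by library size only it was at 0.27, against 0.46 for the median gene.

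Scd2, the stearoyl-CoA desaturase of brain and young liver, rose in every gSpns1-cKO liver. Its counts were 194, 211 and 101 in control and 1100, 1061 and 1350 in gSpns1-cKO livers, which in CPM were 6.90, 6.85 and 3.99 against 30.6, 27.7 and 34.3. The lowest gSpns1-cKO library was well above the highest control library, and the mean rose 5.22-fold, from 5.91 ± 1.67 to 30.9 ± 3.35 CPM (SD, n = 3 each, log2 fold change 2.38, SE 0.20, edgeR adjusted p = 3.42e-05). Scd2 (ENSMUSG00000025203) spans chr19:44293676-44306864 on the plus strand. Its near-identical neighbour Scd1 had 19000, 5880 and 9350 CPM in control and 21100, 4270 and 13600 CPM in gSpns1-cKO livers, did not pass the test (log2 fold change 0.19, SE 0.71, edgeR adjusted p = 0.857) and ranked the libraries differently from Scd2. Per kb, Scd2 amounted to 0.0321%, 0.103% and 0.0378% of Scd1 in control and 0.128%, 0.574% and 0.223% in gSpns1-cKO livers. The log2 ratio of Scd2 to Scd1 was higher by 2.34 in gSpns1-cKO livers without overlap (exact two-sided permutation p = 0.1, the smallest that 3 against 3 can give, adjusted p = 0.15 over 3 ratios).

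Per deposited length, Fads2 with 328 ± 13.2 and Fads1 with 257 ± 9.16 CPM per kb led the 5 desaturases in control livers, although this order turns with the annotated exon lengths, and Scd1 stood above both at 2360 ± 1410. They were followed by Fads6 with 23.5 ± 1.01, Fads3 with 4.77 ± 1.83 and Scd2 with 1.08 ± 0.305 CPM per kb. In gSpns1-cKO livers Fads1 with 201 ± 33.1 and Fads2 with 187 ± 59.2 CPM per kb were within their spread of each other. Scd2 with 5.66 ± 0.615 CPM per kb had passed Fads3 with 3.49 ± 0.795.

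**Figure D2:**
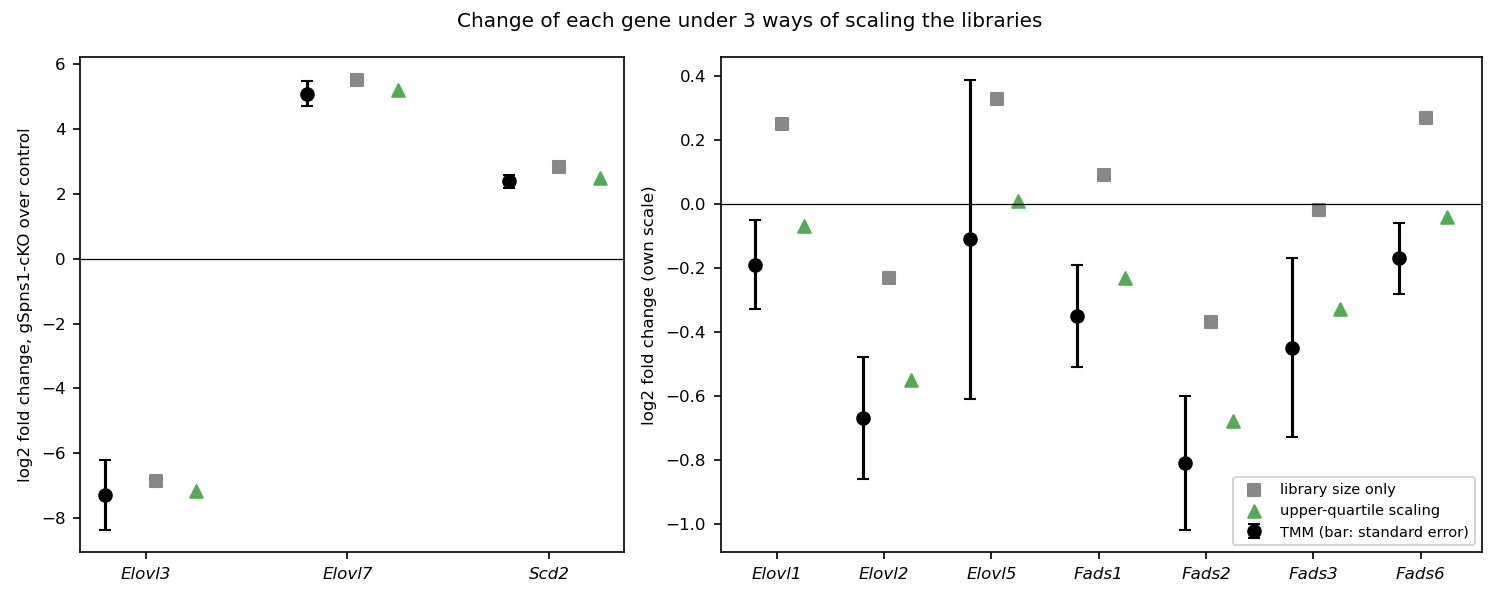
The log2 fold change of gSpns1-cKO over control livers for each gene under TMM scaling (circles, bars are standard errors), library size only (squares) and upper-quartile scaling (triangles), with the 3 genes of large change on the left and the other 7 on a scale of their own on the right. Elovl3, Elovl7 and Scd2 keep their direction and most of their size under all 3 scalings, while the squares of Elovl1, Elovl5, Fads1 and Fads6 lie above 0 and their circles below, on a scale where the median gene moved from 0.01 to 0.46.

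The changes of Elovl3, Elovl7 and Scd2 were large in comparison with the choice of scaling. With library size only they were -6.85, 5.52 and 2.82 on the log2 scale, and with upper-quartile scaling they were -7.17, 5.21 and 2.50. All 3 genes passed the test under every alternative in which they could be tested. Elovl3 and Elovl7 entered these fits through the group where they were high. They dropped out where at least 10 counts were asked of every library. Library size only moves all genes by nearly the same amount, to a median of 0.46, so the positive signs of Elovl1, Elovl5, Fads1 and Fads6 on that scale follow from the shift. Relative to the median gene, these 4 genes were at -0.21, -0.13, -0.37 and -0.18 with library size only and at -0.21, -0.12, -0.37 and -0.18 with TMM, and Elovl2 and Fads2 were at -0.69 and -0.82 under both. This near-equality follows from the nearly constant shift and cannot show which scaling sets the right zero.

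Proportions within a library do not depend on the scaling, and they were compared per kb of deposited length among the 5 elongases and among the 5 desaturases. Elovl3 made up 18.1%, 12.4% and 14.9% of the elongase transcripts in control livers and 0.287%, 0.0491% and 0.0285% in gSpns1-cKO livers. The share of Elovl5 was 42.9%, 31.7% and 35.6% in control and 58.9%, 43.8% and 52.3% in gSpns1-cKO livers, a mean difference of 14.9 percentage points without overlap. With the annotated exon lengths the difference was 13.5 points and the groups overlapped. The share of Elovl2 was 43.8% ± 7.33 and 42.2% ± 6.43 (SD, n = 3 each), and the groups overlapped. In each of the shares of Elovl3, Elovl5 and Elovl7 the exact two-sided permutation p was 0.1, the smallest possible (adjusted p = 0.167 over 5 genes), and for Elovl2 the exact p was 0.8. Shares within a library sum to a constant, so a smaller share of Elovl3 leaves larger shares to the others, and the level of Elovl5 itself did not pass the test.

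Among the desaturases, the share of Fads1 was 43.4%, 41.7% and 40.3% in control and 45.6%, 51.2% and 48.4% in gSpns1-cKO livers, and that of Fads2 was 51.6%, 53.7% and 55.1% against 48.3%, 39.7% and 44.6%. Which of the pair is larger depends on the gene length, and with the annotated exon lengths, as in CPM, Fads1 exceeded Fads2 in all 6 libraries. The direction and the lack of overlap held with these lengths, at which the share of Fads2 was 39.6%, 41.6% and 43% in control and 36.3%, 28.4% and 32.9% in gSpns1-cKO livers. A group difference in the log2 ratio of a pair of genes does not depend on their lengths. The ratio of Fads1 to Fads2 per deposited kb was 0.841, 0.776 and 0.731 in control and 0.945, 1.29 and 1.08 in gSpns1-cKO livers. The log2 ratio rose from -0.36 ± 0.10 to 0.13 ± 0.23 (SD, n = 3 each) without overlap, and the exact two-sided permutation p was 0.1, which cannot pass 0.05 in this design (adjusted p = 0.15 over 3 ratios). Scd2 made up 0.177% ± 0.0515 of the desaturase transcripts in control livers and 1.39% ± 0.266 in gSpns1-cKO livers. For Elovl2 over Elovl5, the log2 ratio was -0.26, 0.66 and 0.35 in control and -0.71, 0.15 and -0.32 in gSpns1-cKO livers, and the groups overlapped (exact two-sided permutation p = 0.2).

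**Figure D3:**
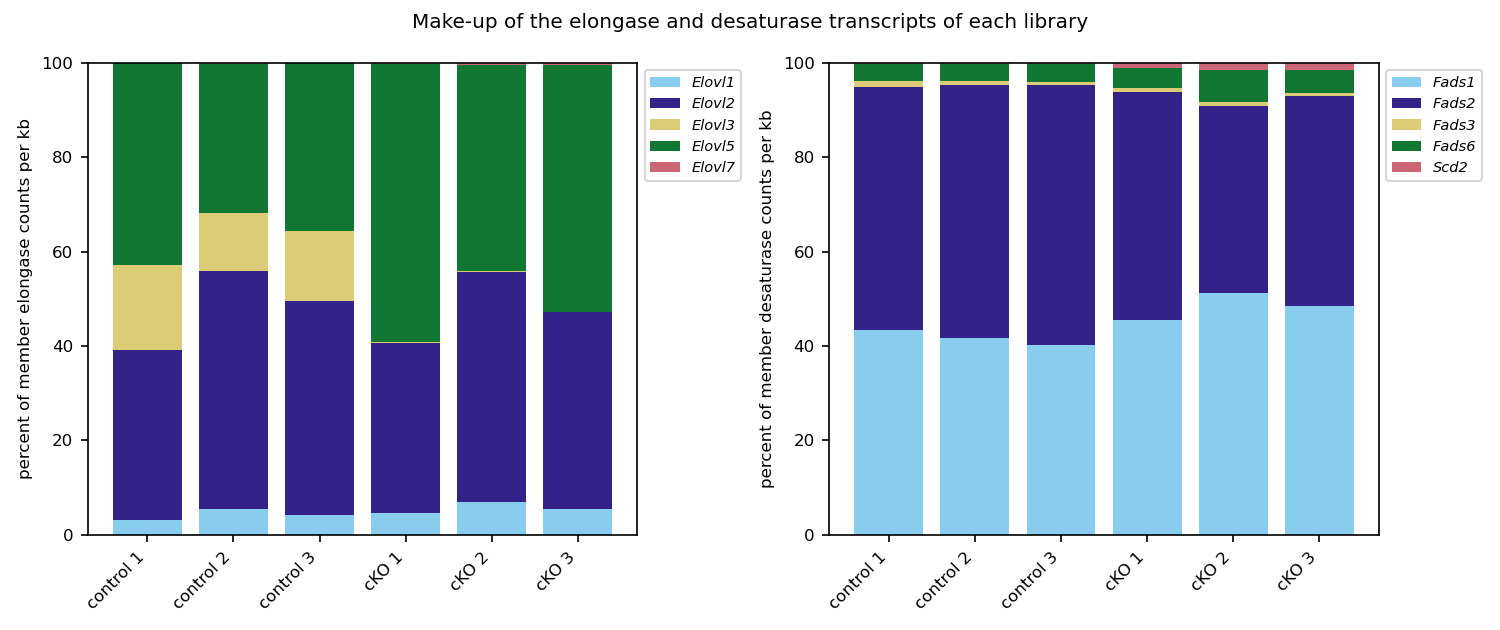
Stacked bars give the percentage of counts per kb of deposited length contributed by each gene to the 5 elongases (left) and the 5 desaturases (right) in each of the 6 liver libraries. The Elovl3 band is between 12.4% and 18.1% in control libraries and is too thin to see in gSpns1-cKO libraries, and the Fads2 band is narrower in each gSpns1-cKO library than in any control library.

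The genes that work with these enzymes were taken from 4 lists written by role, 43 genes in all, of which 38 could be tested. Of these, 2 were higher, 17 were lower and 19 did not pass the test, beside 21.3% higher and 20.5% lower among all tested genes, and their median log2 fold change was -0.37. With library size only, 7 were higher and 7 lower, where 47.2% of all tested genes were higher and 6.28% lower, and of the lower calls outside the peroxisomal list only that of Rxra was kept.

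Of 9 genes of the elongation list 7 were tested, 1 was higher and 3 were lower, beside 21.3% and 20.5% of all tested genes. The 3 lower genes covered the later steps of the cycle. At the dehydratase step, however, Hacd4 was higher. Hacd1 (-0.23, edgeR adjusted p = 0.325) and Hacd2 (-0.21, edgeR adjusted p = 0.185) did not pass the test. The ketoacyl reductase Hsd17b12 fell from 208 ± 12.4 to 118 ± 31.3 CPM (log2 fold change -0.81, SE 0.18, edgeR adjusted p = 0.00482). The enoyl reductase Tecr fell from 272 ± 25.1 to 183 ± 17.2 CPM (-0.57, SE 0.13, edgeR adjusted p = 0.00548), and the dehydratase Hacd3 from 254 ± 17.5 to 175 ± 15.4 CPM (-0.54, SE 0.12, edgeR adjusted p = 0.00563). These 3 calls were lost with library size only, at -0.37, -0.13 and -0.10. Hacd4, a further dehydratase, rose from 1.15 ± 0.289 to 2.82 ± 0.457 CPM (1.29, SE 0.29, edgeR adjusted p = 0.00497) and was also called higher with DESeq2 size factors, library size only and upper-quartile scaling. Elovl6, the elongase of palmitate, had 377, 137 and 122 CPM in control and 522, 230 and 837 CPM in gSpns1-cKO livers and did not pass the test (edgeR adjusted p = 0.201). Elovl4 had 0 counts in each control library and 3, 3 and 7 counts in gSpns1-cKO libraries and could not be tested.

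Of the genes listed as electron carriers, Cyb5b fell from 692 ± 57.4 to 408 ± 92.6 CPM (-0.76, SE 0.18, edgeR adjusted p = 0.00636). The cytochrome b5 reductase Cyb5r3 fell from 786 ± 168 to 465 ± 132 CPM (-0.76, SE 0.22, edgeR adjusted p = 0.0208). Cyb5a, a more abundant cytochrome b5 gene than Cyb5b, had 1030 ± 158 CPM in control and 1130 ± 236 CPM in gSpns1-cKO livers. It did not pass the test (0.14, SE 0.19, edgeR adjusted p = 0.596). Whether Cyb5a or Cyb5b gives electrons to these desaturases was not tested, so the fall of Cyb5b does not show less electron supply. With library size only the calls of Cyb5b and Cyb5r3 were lost, at -0.32 each. On that scale Cyb5a was called higher (0.58, edgeR adjusted p = 0.0248), against 0.46 for the median gene. The desaturation list held 9 genes, of which 6 were tested, 0 higher, 2 lower and 4 not past the test. Of all tested genes, 21.3% were higher and 20.5% lower. Scd3 and Scd4, the remaining stearoyl-CoA desaturases of the mouse, had at most 25 and 11 counts in any library and did not pass the filter on low counts. In the edgeR fit with TMM scaling no gene of the list was higher at an unadjusted p of 0.05 (0 genes). DESeq2 and limma-voom called none higher (0 genes each).

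Transcription factors and cofactors known to control these genes were listed separately, and 6 of 16 were lower and 0 higher by edgeR. Among all tested genes, 20.5% were lower and 21.3% higher. At an unadjusted p of 0.05, 1 gene (Insig2) was higher in edgeR, and DESeq2 and limma-voom called 0 genes higher. Insig2 was called higher with upper-quartile scaling (edgeR adjusted p = 0.0321), and with library size only Insig2, Pparg, Srebf1 and Srebf2 were higher and Rxra lower. Ppargc1b, a coactivator of SREBP, had a log2 fold change of -1.18 (SE 0.34, edgeR adjusted p = 0.0192). Rxra, the shared partner of the PPAR and LXR receptors, fell from 550 ± 82.0 to 302 ± 29.9 CPM (-0.87, SE 0.15, edgeR adjusted p = 0.00147) and also passed the test with DESeq2 size factors, library size only and upper-quartile scaling. The SREBP chaperone Scap was at -0.78 (SE 0.20, edgeR adjusted p = 0.0134) and the clock repressor Nr1d2 at -0.73 (SE 0.14, edgeR adjusted p = 0.00239), and these calls, like that of Ppargc1b, were lost with library size only. Srebf1, which encodes the main activator of lipogenic and desaturase genes, did not pass the test (0.34, edgeR adjusted p = 0.332), and neither did Mlxipl (-0.01, edgeR adjusted p = 0.987). Nr1d1, the other clock repressor of this kind, had 88.3, 50 and 55.4 CPM in control and 64.7, 12.1 and 12.7 CPM in gSpns1-cKO livers (edgeR adjusted p = 0.353), and times of collection were not given in the sources used here.

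Peroxisomes shorten the last elongation product of the polyunsaturated route to docosahexaenoic acid. Of 9 genes for that step 6 were lower and 1 was higher, beside 20.5% lower and 21.3% higher among all tested genes. The median log2 fold change of the 9 genes was -1.01. The transporter Abcd3 (-1.41, SE 0.17, edgeR adjusted p = 0.00017) and the thiolase Acaa1a (-1.20, SE 0.13, edgeR adjusted p = 7.4e-05) fell, and these calls held with library size only. Abcd2, a transporter of very long-chain polyunsaturated acyl-CoA, rose (2.09, SE 0.42, edgeR adjusted p = 0.0124). It was also called higher with DESeq2 size factors (2.08), library size only (2.53) and upper-quartile scaling (2.22). Without control replicate 2 its log2 fold change was 2.0 and the call was lost (edgeR adjusted p = 0.0506). Ehhadh was at -0.00 (edgeR adjusted p = 0.992).

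**Figure D4:**
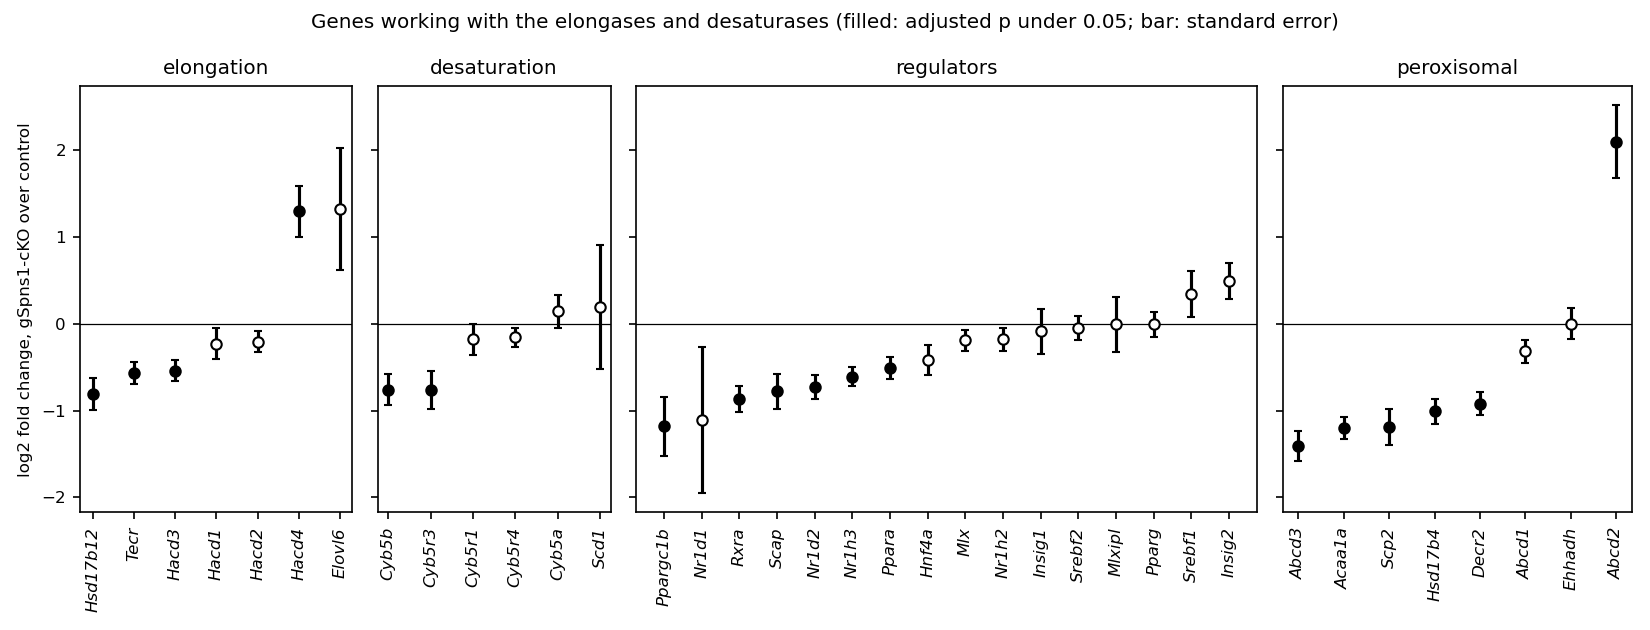
The log2 fold change of gSpns1-cKO over control livers for the tested genes shown of the elongation, desaturation, regulator and peroxisomal lists under TMM scaling, with standard errors as bars and filled circles for an adjusted p under 0.05. Filled circles lie below 0 except Hacd4 at 1.29 and Abcd2 at 2.09.

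Markers of other cell types moved with the genotype in the same libraries. The calls below stand beside 21.3% higher and 20.5% lower among all tested genes. All 10 macrophage markers were higher, and their summed level was 176 to 287 CPM in control and 772 to 1120 CPM in gSpns1-cKO livers. All 6 cholangiocyte markers were higher, from 44.2 to 62.9 CPM up to 172 to 280 CPM, as were 6 of 8 stellate cell markers, from 185 to 215 CPM up to 497 to 551 CPM, and 5 of 6 endothelial markers, from 137 to 153 CPM up to 202 to 249 CPM. Of 5 neutrophil markers 2 could be tested and were higher, with sums of 1.92 to 3.44 and 4.73 to 8.80 CPM, and Ly6g had at most 3 counts in every library. Of 8 lymphocyte markers 1 was higher and 1 lower. Of 8 hepatocyte markers 5 were lower, with a median log2 fold change of -0.60, beside -0.67 for Elovl2 and -0.81 for Fads2. Another of the 8, Cps1, went the other way, from 2490 to 3160 CPM up to 3450 to 3950 CPM. It did not pass the test (0.36, edgeR adjusted p = 0.1). All these marker levels and calls rest on TMM scaling, and library size only moves all genes by nearly the same amount, to a median of 0.46. In bulk liver, fewer cells of a type and less RNA per cell cannot be told apart. The part of the marker shifts in the rise of Elovl7 and Scd2 and in the fall of Elovl2 and Fads2 was not tested. The defining adipocyte transcripts Adipoq, Plin1 and Lep had at most 3 counts in every library. Cidea, a lipid droplet gene shared by brown fat and liver, had 452, 21 and 88 counts in control and 6, 0 and 10 in gSpns1-cKO livers and missed the threshold (log2 fold change -5.54, edgeR adjusted p = 0.0547).

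The genes most like Elovl3 over the 6 libraries were sought among the 8009 genes whose CPM averaged 10 or more, by the root mean square difference of their centred log2 CPM. They were Slco1a1 (0.544), Selenbp2 (0.693) and Mup1 (0.742). Slco1a1, an organic anion transporter of male liver, fell from 426 ± 101 to 3.09 ± 0.895 CPM (SD, n = 3 each, log2 fold change -7.11, edgeR adjusted p = 1.26e-06). Selenbp2, a selenium-binding protein gene, fell from 455 ± 103 to 9.52 ± 8.06 CPM (-5.58, edgeR adjusted p = 0.00466). Mup1, a major urinary protein gene, had 1240, 1594 and 1357 counts in control and 1, 0 and 0 counts in gSpns1-cKO livers, although reads may be split among its near-identical copies. For Fads2, the most abundant of the 10 genes per deposited length, the nearest included H2-Q7 (0.0483) and Hsd17b12 (0.0783), with log2 fold changes of -0.77 and -0.81. H2-Q7 belongs to a family of near-identical class I genes, and its level is uncertain for that reason. These likenesses describe 6 libraries and carry no test.

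The promoters of Elovl7, which rose, of Fads2 and Elovl2, which fell, and of Elovl5, which did not pass the test, are shown because genes that moved in different ways can be set side by side in base composition and in short motifs that general factors bind. The sequences are RefSeq's for GRCm38.p6, cover 250 bases before the start and are printed 5′ to 3′ on the strand of the gene, with every CCAAT box, every E-box of the form CACGTG and every GC box of the form GGGCGG, on either strand, in capitals.
Elovl7: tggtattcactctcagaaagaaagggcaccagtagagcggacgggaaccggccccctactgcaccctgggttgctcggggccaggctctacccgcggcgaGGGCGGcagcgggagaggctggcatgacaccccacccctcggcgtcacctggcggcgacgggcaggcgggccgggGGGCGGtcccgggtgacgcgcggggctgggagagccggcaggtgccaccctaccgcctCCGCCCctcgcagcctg
Fads2: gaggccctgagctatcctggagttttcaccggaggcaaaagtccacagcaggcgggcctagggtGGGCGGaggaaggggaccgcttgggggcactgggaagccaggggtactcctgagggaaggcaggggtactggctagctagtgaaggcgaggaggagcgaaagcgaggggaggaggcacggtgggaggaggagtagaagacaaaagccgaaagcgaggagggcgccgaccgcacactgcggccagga
Elovl2: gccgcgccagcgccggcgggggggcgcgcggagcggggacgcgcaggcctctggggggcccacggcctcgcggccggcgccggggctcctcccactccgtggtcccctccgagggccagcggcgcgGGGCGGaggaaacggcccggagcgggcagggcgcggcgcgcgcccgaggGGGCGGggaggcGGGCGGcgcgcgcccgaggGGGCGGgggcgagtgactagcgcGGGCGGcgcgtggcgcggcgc
Elovl5: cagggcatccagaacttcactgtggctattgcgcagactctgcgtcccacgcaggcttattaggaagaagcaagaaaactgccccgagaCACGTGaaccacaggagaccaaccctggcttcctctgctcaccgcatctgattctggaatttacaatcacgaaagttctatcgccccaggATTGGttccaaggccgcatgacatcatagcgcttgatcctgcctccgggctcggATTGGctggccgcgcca
They lie at chr13:108214154-108214403 plus for Elovl7, chr19:10101504-10101753 minus for Fads2, chr13:41220404-41220653 minus for Elovl2 and chr9:77917115-77917364 plus for Elovl5. The table held 7 of the 10 genes, and those of Elovl3, Fads1 and Scd2 are not shown. GGGCGG occurred 3 times before Elovl7, 5 times before Elovl2 and 1 time before Fads2, and Elovl5 had 2 CCAAT and 1 CACGTG. Among 32851 promoters of this length, 32.7% held GGGCGG, 33.8% held CCAAT and 6.02% held CACGTG. The G and C content was 73.6% before Elovl7, 64.8% before Fads2, 87.2% before Elovl2 and 55.6% before Elovl5. A match describes letters in the window and no binding was measured.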

How the data were processed

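Liver mRNA of 3 gSpns1-cKO and 3 control mice was sequenced, and animals were grouped by the sample labels. The authors deposited whole-number counts per gene, not normalized, and FPKM values, which divide counts by gene length and a library total. The submitters' processing notes name fastp, HISAT2 2.0.5, featureCounts 1.5.0-p3 and mm10, and whether counting used strand is not given in the sources used here, so reads of overlapping genes on opposite strands may not be told apart. The authors' table also holds their own fold changes and p-values, which were not used. The paper's methods name no test for the RNA-Seq data in particular. The caption of its figure with the RNA-Seq panels, which also holds protein blots, names an unpaired t test without saying for which panels.

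Counts were analysed with edgeR 4.0.16 in R 4.3.3. Of 26590 genes with a count, filterByExpr kept 15449, libraries were scaled by TMM, and the groups were compared by the quasi-likelihood test (glmQLFit, robust) with Benjamini-Hochberg adjustment over all tested genes and a threshold of 0.05. The standard error is the log2 fold change divided by the square root of F. CPM divide the counts by the library size after TMM scaling, with the SD taken over the 3 libraries of a group. The labels give the libraries of a group as separate samples, no pair of which agreed within sampling noise as a library deposited in duplicate would, and p-values measure the spread between these libraries. Exact permutation tests of shares and ratios were two-sided and cannot go below 0.1 with 3 against 3. The counting interval of a ratio is the exact (Clopper-Pearson) one. The main edgeR fit was tested on simulated data.

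The genes and lists were chosen with earlier results of these data known. Named by rule were these 10 genes, Spns1, their relatives Elovl4, Elovl6, Scd1, Scd3 and Scd4, up to 4 called genes of largest change per partner list, and the 3 genes most like Elovl3 (largest change) and Fads2 (most abundant per length). Hacd1, Hacd2, Insig2, Pparg, Srebf1, Srebf2, Mlxipl, Nr1d1, Ehhadh, Cyb5a, Cps1 and Cidea were named after their values were seen. A further 2 genes named by this rule are left out of the text. Alternatives were DESeq2 1.42.0, limma-voom (limma 3.58.1), other scalings, filters and thresholds, the deposited FPKM, a replicate block and leaving out each library. Sequences were read with Biopython 1.88 from GENCODE M21 and RefSeq, and shares use the deposited gene lengths, with GENCODE M21 exon lengths as an alternative added after seeing the data.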

Additional observations from a re-analysis of the deposited data

How the results depend on the processing

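Of 333 recomputed values, 10 turned direction. Shares and ratios could not pass 0.05 under any setting, so only their direction and size bear on stability. With library size only, which moved the median gene to 0.46 and called 47.2% of all genes higher and 6.28% lower, 1 of the 10 genes was lower and 7 partner genes were higher and 7 lower, and the log2 fold change was 0.25 for Elovl1, 0.33 for Elovl5, 0.09 for Fads1 and 0.27 for Fads6. Elovl5 was at 0.01 with upper-quartile scaling, 0.31 without control replicate 1 and 0.19 without gSpns1-cKO replicate 2, and ranged from -0.61 to 0.31 when each library was left out. The share of Elovl2 was higher in gSpns1-cKO livers by 1.58 points without control replicate 2 and 1.46 without gSpns1-cKO replicate 1 (range -5.64 to 1.58), and that of Fads3 was lower, at -0.0631, without control replicate 3 (range -0.0631 to 0.225). With at least 10 counts in every library, 1 gene was higher and 2 were lower, because Elovl7 and Elovl3 did not pass this filter. Of all genes tested there, 21.8% were higher and 20.1% lower. At a threshold of 0.01, 1 gene was lower and 1 partner gene higher, beside 12.3% lower and 12.8% higher among all tested genes. Leaving out each library gave 2 to 2 higher and 2 to 5 lower genes, the 5 without gSpns1-cKO replicate 1, and 1 to 3 higher and 15 to 19 lower partner genes, the 1 without control replicate 2, where Abcd2 was lost (edgeR adjusted p = 0.0506). In these fits 15% to 20.2% of all genes tested were higher and 13.5% to 20.3% lower. Fads3 was called at -0.46 with at least 1 count in any library (edgeR adjusted p = 0.0135).

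The sources used here do not say whether replicate numbers mark pairs of mice. Over all tested genes, the correlations of deviations between same-numbered libraries were 0.0371, 0.0331 and -0.0279. These values do not exclude a pairing that acts on single genes. Elovl5 and Scd1 ranked replicates 1, 3 and 2 from highest to lowest in both groups. The log2 ratio of Elovl2 to Elovl5 was lower in each gSpns1-cKO library than in the control library of the same number. With a replicate block, 6100 genes were called against 6452. Among the 10 genes, 2 were then higher and 4 lower, the added one being Fads3 (-0.41, edgeR adjusted p = 0.0477). Of all tested genes, 20% were higher and 19.5% lower with the block. Elovl5 was not called with the block (-0.15, edgeR adjusted p = 0.464). For the ratios of Fads1 to Fads2, Elovl2 to Elovl5 and Scd2 to Scd1 the block leaves the log2 differences of 0.49, -0.55 and 2.34 as they are by construction, and the smallest exact p is 0.25. With 3 libraries per group and the spread of Elovl5 and Scd1, moderate changes of these genes were not detectable without the block. For Elovl5 the unadjusted edgeR p was 0.836 without the block and 0.352 with it.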
